A study of Mus musculus with 27 samples.

Results

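The primitive streak and mesoderm factors are 9 genes that mark the streak of the gastrulating embryo and the mesoderm that leaves it: *T*, *Eomes*, *Mixl1*, *Evx1*, *Gsc*, *Mesp1*, *Tbx6*, *Fgf8* and *Msgn1*. They were taken by gene symbol from 3 tables of read counts, which together list 27080 genes. All 9 were listed in every table. The study asked how loss of Gas41, a YEATS domain protein shared by the chromatin complexes that deposit the histone variant H2A.Z and encoded by *Yeats4*, alters gene expression in mouse embryonic stem cells (mESCs).

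RNA was sequenced from 12 libraries, all of J1 cells, a mouse ESC line grown without feeder cells. Cells were infected with lentivirus carrying a control vector (shNT, called shCon in the labels, 3 libraries), shGas41-1 (3 libraries) or shGas41-2 (2 libraries) and were harvested at day 8 after infection. The embryoid body (EB) libraries also came from control vector cells. Those kept with the cytokine LIF gave EB day 0 (2 libraries) and those grown as floating aggregates without LIF gave EB day 6 (2 libraries). All cells therefore carried a lentiviral vector, every group was made in 1 cell line, and the short hairpins acted on a pool of infected cells. The study's methods say that its experiments had biological repeats, but no source used here ties a library number to a culture of its own, and the p-values measure the spread between these libraries. These are bulk libraries, in which fewer cells that express a gene and less RNA in each cell cannot be told apart.

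In the embryo, the epiblast is patterned by Nodal, Wnt and Bmp signals, and its posterior cells form the primitive streak, through which mesoderm and definitive endoderm are made. *T* (Brachyury), *Eomes* and *Tbx6* encode T-box transcription factors that act at successive steps of this process, *Mixl1*, *Evx1* and *Gsc* encode homeobox factors of the streak, *Mesp1* and *Msgn1* encode basic helix-loop-helix factors of early and presomitic mesoderm, and *Fgf8* encodes a growth factor that streak cells need in order to migrate. Undifferentiated mESCs carry many such developmental genes in a silent or barely transcribed state, and EBs switch them on as they differentiate.

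T-box factors bind a half-site with the letters AGGTGT, and promoter windows of 250 bases upstream of the RefSeq gene start were searched for it on both strands. The windows are from build GRCm38.p6, which differs from the build of the counts (mm9), and 7 of the 9 genes had one. The half-site was present in 3 of these 7 windows, those of *T*, *Evx1* and *Mesp1*, against 11.8% of 32851 mouse promoter windows of the same length. The search was chosen after these promoters had been read. The windows of the genes that the comparisons turn on are shown on the strand of the gene, with the half-site in capitals. They are *Evx1* (chr6:52313248-52313497, plus strand), *Tbx6* (chr7:126781233-126781482, plus strand), *Eomes* (chr9:118477939-118478188, plus strand) and *T* (chr17:8434173-8434422, plus strand).
Evx1: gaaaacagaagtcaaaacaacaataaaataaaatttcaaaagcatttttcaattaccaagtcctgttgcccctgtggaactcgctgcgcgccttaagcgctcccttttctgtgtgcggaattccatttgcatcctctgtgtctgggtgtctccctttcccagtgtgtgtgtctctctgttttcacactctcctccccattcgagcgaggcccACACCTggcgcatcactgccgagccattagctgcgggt
Tbx6: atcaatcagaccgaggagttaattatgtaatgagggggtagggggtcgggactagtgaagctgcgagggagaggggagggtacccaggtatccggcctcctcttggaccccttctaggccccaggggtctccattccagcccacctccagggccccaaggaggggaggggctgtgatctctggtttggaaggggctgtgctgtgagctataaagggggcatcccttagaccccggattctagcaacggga
Eomes: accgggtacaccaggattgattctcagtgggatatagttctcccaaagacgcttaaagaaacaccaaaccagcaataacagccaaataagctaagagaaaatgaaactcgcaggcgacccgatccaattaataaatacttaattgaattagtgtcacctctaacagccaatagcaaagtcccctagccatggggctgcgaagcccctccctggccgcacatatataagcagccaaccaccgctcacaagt
T: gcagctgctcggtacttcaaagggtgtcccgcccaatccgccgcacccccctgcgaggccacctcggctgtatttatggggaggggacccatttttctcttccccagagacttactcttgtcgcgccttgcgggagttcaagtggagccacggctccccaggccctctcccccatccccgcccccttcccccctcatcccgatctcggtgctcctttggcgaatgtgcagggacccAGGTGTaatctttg
In *Evx1* the half-site began 38 bases upstream of the start and read from the opposite strand, and in *T* it began 14 bases upstream. The windows of *Tbx6* and *Eomes* did not hold these letters. A window was read for CpG as well: *Gsc* held 22 CpG, *T* 14, *Evx1* 10, *Eomes* 8, *Tbx6* 6, *Msgn1* 4 and *Mesp1* 2, beside a median of 6 over all windows. The letters CTTTGAT, which the TCF/LEF factors of Wnt signalling bind, were found on either strand in *Mesp1* and *Msgn1* and in 3.21% of all windows, and TATAAA was found in *Gsc* and *Tbx6* and in 7.59% of all windows.

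The libraries held between 59224537 and 81524773 counts. Levels are given as CPM, the counts of a gene scaled by the total of its library. A floor of 3 counts was taken as the smallest measurable amount, which lay between 0.0368 and 0.0507 CPM and covers counting error only. *Yeats4* was at 56.6 ± 5.87 CPM (SD, n = 3) in shNT and was left at 7.48% of that level by shGas41-1 and at 14.5% by shGas41-2. All 8 markers of undifferentiated mESCs, among them *Pou5f1*, *Sox2* and *Nanog*, were detected in every group, and they summed to between 4395 and 5281 CPM in the libraries other than EB day 6, where they summed to 1194 and 1525 CPM. In shGas41-1, 1 of these markers rose (*Dppa3*) and 2 fell (*Klf4* and *Esrrb*), beside 7.9% and 2.4% of all genes tested. In shGas41-2, 0 of the 8 were called by edgeR. Within shGas41-1, replicate 3 stood apart: the chi-square of the counts over genes, per degree of freedom, was 134 and 220 against replicates 1 and 2, whereas it was 33.5 between those and at most 75.9 between libraries of any other group. The calls of the members with shGas41-1 and the fold changes of *Evx1*, *Eomes* and *Tbx6* are therefore also given without it. The fold changes of the other members and the results of the lists and markers are not. Markers of the other cell types are given with the results at EB day 6 and in the KDs, those of primed epiblast at EB day 6 only.

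A gene was called up or down when edgeR's quasi-likelihood test gave a change of at least 2-fold (an absolute log2 fold change of 1) at a false discovery rate (FDR, Benjamini-Hochberg over all genes tested) of at most 0.05. Of the 9 genes, 8 passed the filter on low counts in each KD comparison, and *Msgn1* did not. With shGas41-1, *Evx1* rose, *Eomes* and *Tbx6* fell, and the other 5 tested were not called. With shGas41-2, *Evx1* rose and the other 7 were not called. For comparison, shGas41-1 raised 7.9% and lowered 2.4% of all genes tested. The shares for shGas41-2 were 3.96% raised and 0.869% lowered. The count of members called down with shGas41-2 was 0 with edgeR and with DESeq2, and 2 members were lower at an unadjusted p under 0.05 (*Eomes* and *Tbx6*). Both KD comparisons used the same 3 shNT libraries. Without shGas41-1 replicate 3, 1 member was called up (*Evx1*) and 1 down (*Tbx6*) with that hairpin.

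*Evx1* (ENSMUSG00000005503, chr6:52263492-52268372, mm9, plus strand) had the clearest response to KD. It was at 0.861, 1.46 and 0.732 CPM in the 3 shNT libraries. It reached 4.43, 12.0 and 3.03 CPM with shGas41-1. It reached 3.85 and 9.95 CPM with shGas41-2. All 5 KD libraries lay above all 3 shNT libraries and above both EB day 0 libraries, which were at 1.32 and 1.65 CPM. Separation of this kind from shNT was found for 18.1% of all genes tested with shGas41-1 and 18.2% with shGas41-2. The mean was 6.38-fold higher with shGas41-1 (log2 fold change 2.73 ± 0.51 SE, edgeR FDR = 0.00934) and 6.79-fold higher with shGas41-2 (2.85 ± 0.43, edgeR FDR = 0.00905). The library numbered 2 had the highest level in each of these 3 groups, and the ratio between libraries of the same number ran from 4.14 to 8.23. Without shGas41-1 replicate 2, the highest library, the log2 fold change for that hairpin was 1.97 (FDR = 0.00674), and without replicate 3, the lowest, it was 3.04 (FDR = 0.00411). Without shGas41-2 replicate 2 the log2 fold change for that hairpin was 1.98 and its FDR 0.0511, so that the call was lost. Tested against a 2-fold change itself (glmTreat), *Evx1* had an FDR of 0.075 with shGas41-1 and 0.0947 with shGas41-2.

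*Evx1* overlaps *5730457N03Rik*, a transcript on the opposite strand, and the library kit did not mark strand, so reads from the shared stretch cannot be told apart. The strand setting of the counting is not given, so such reads may have been counted or left out as ambiguous. If they were left out, the levels of both genes are too low. The neighbour rose as well. It was at 0.253, 0.231 and 0.0690 CPM in shNT. It was at 1.64, 2.76 and 1.21 CPM with shGas41-1 and at 1.07 and 1.87 CPM with shGas41-2. No KD library overlapped the shNT libraries, and the log2 fold changes were 3.42 ± 0.47 (edgeR FDR = 0.00326) and 3.09 ± 0.48 (edgeR FDR = 0.00975). In the shGas41-1 comparison *5730457N03Rik* passed the filter on low counts only through the KD libraries, where it was higher, which limits what that test can show. Whether the shared reads were counted, and which of the 2 transcripts they came from, was not tested.

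**Figure D1:**
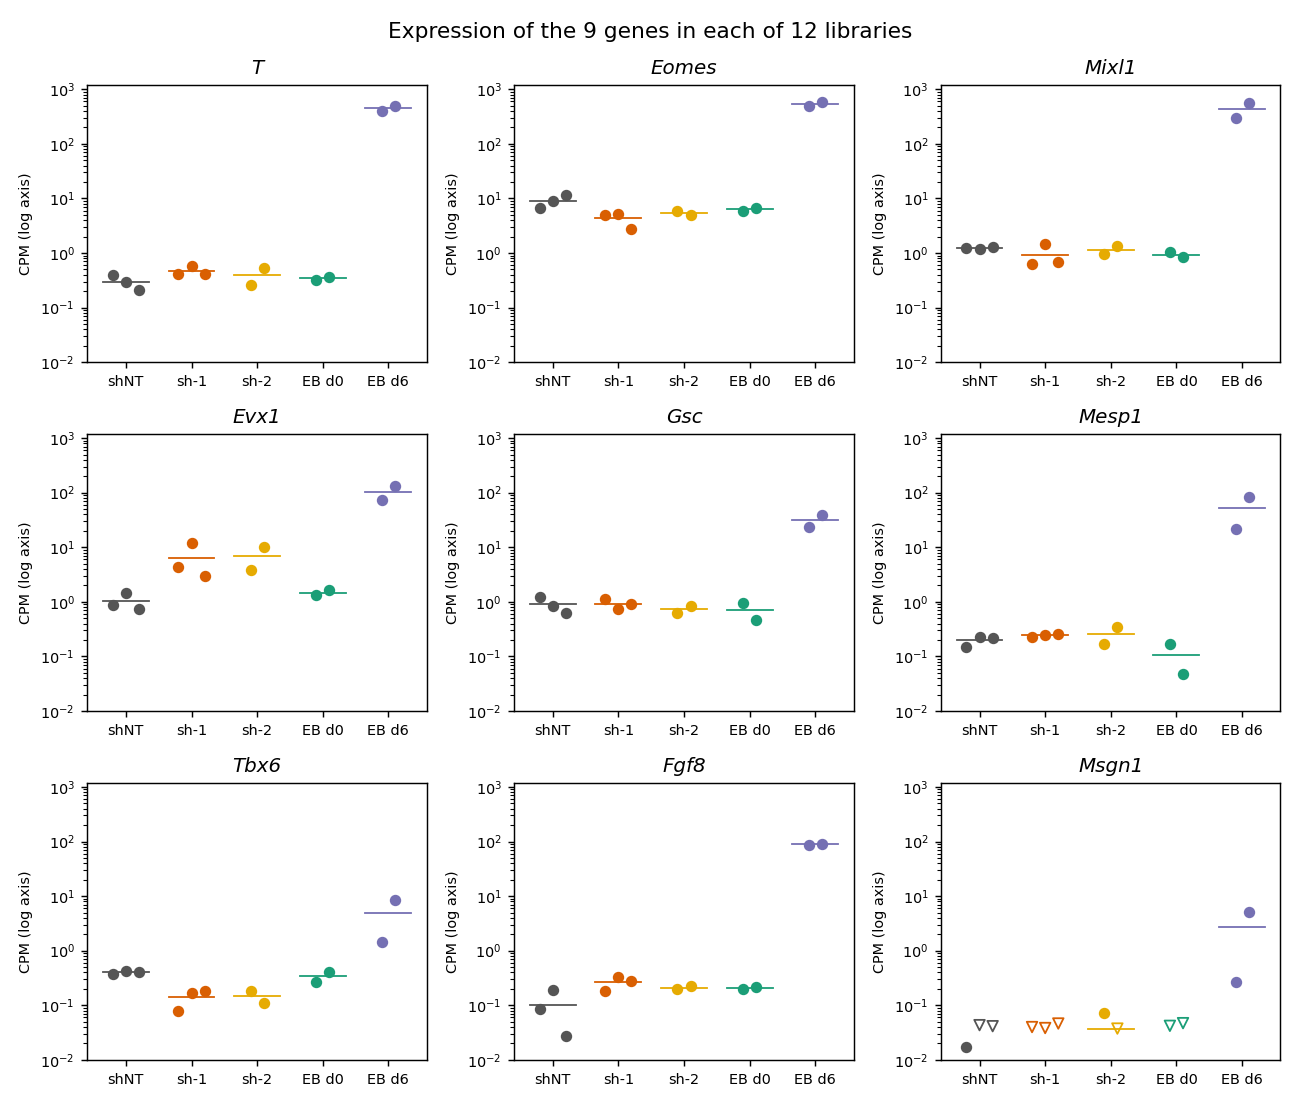
Level of each of the 9 genes in CPM (log axis) in the 3 shNT, 3 shGas41-1 (sh-1), 2 shGas41-2 (sh-2), 2 EB day 0 and 2 EB day 6 libraries, with a point for each library and a line at the group mean. Open triangles stand at the floor of 3 counts for libraries with 0 counts. *Evx1* is the gene whose KD libraries all lie well above shNT, and every gene is highest at EB day 6.

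The 2 other homeobox genes gave no call. *Mixl1* (ENSMUSG00000026497, chr1:182623174-182627165, minus strand) was at 1.25, 1.2 and 1.31 CPM in shNT. It was at 0.625, 1.46 and 0.695 CPM with shGas41-1 and at 0.969 and 1.34 CPM with shGas41-2. The KD libraries lay on both sides of shNT. The 95% interval of the log2 fold change ran from -1.11 to 0.39 with shGas41-1 and from -0.60 to 0.52 with shGas41-2. *Gsc* (ENSMUSG00000021095, chr12:105709419-105711537, minus strand), a gene of the anterior streak and its derivatives, was at 1.25, 0.836 and 0.621 CPM in shNT. It was at 1.12, 0.728 and 0.912 CPM with shGas41-1 and at 0.626 and 0.824 CPM with shGas41-2. All KD libraries were within the range of shNT, and the intervals ran from -0.61 to 0.83 and from -1.03 to 0.58. These intervals leave room for changes of up to about the fold used for calling.

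Of the T-box genes, *Eomes* and *Tbx6* were lower in every KD library than in every shNT library. *Eomes* (ENSMUSG00000032446, chr9:118387330-118395250, plus strand), which acts first of the 3 and is also a trophoblast gene, was at 6.70, 8.84 and 11.6 CPM in shNT. It was at 4.98, 5.25 and 2.70 CPM with shGas41-1. It was at 5.91 and 4.90 CPM with shGas41-2. The groups did not overlap, but the highest KD library and the lowest shNT library were close, and the EB day 0 libraries (5.88 and 6.81 CPM) lay on either side of that gap. The level was left at 47.6% of shNT by shGas41-1 (log2 fold change -1.0004 ± 0.27 SE, edgeR FDR = 0.0343) and at 59.8% by shGas41-2 (-0.67 ± 0.23, edgeR FDR = 0.107). The first of these passed the fold threshold of 2 by a margin smaller than its error. Its call was lost without shGas41-1 replicate 1 (FDR = 0.0787), shGas41-1 replicate 3 (log2 fold change -0.79, FDR = 0.0456), shNT replicate 2 (FDR = 0.0945) or shNT replicate 3 (FDR = 0.12).

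*Tbx6* (ENSMUSG00000030699, chr7:133924997-133929074, plus strand), which directs cells to paraxial mesoderm and away from a neural fate, was nearly silent in all undifferentiated cells. Its libraries held 22, 30 and 30 counts in shNT, or 0.371, 0.433 and 0.414 CPM. They held 6, 13 and 12 counts with shGas41-1, or 0.0798, 0.166 and 0.185 CPM. They held 15 and 9 counts with shGas41-2, or 0.184 and 0.112 CPM. The 5 KD libraries lay below the 3 shNT libraries and below both EB day 0 libraries, at 0.266 and 0.408 CPM. The level was left at 35.4% of shNT by shGas41-1 (log2 fold change -1.42 ± 0.39 SE, edgeR FDR = 0.0378) and at 36.5% by shGas41-2 (-1.37 ± 0.40, edgeR FDR = 0.067). The 2 estimates were alike in size and fell on either side of the threshold. In both comparisons *Tbx6* passed the filter on low counts only through shNT, where it was higher. The call with shGas41-1 was lost when any 1 of 5 libraries was left out (shGas41-1 replicates 1 and 2 and shNT replicates 1, 2 and 3, with FDR between 0.0605 and 0.121) and kept without shGas41-1 replicate 3 (log2 fold change -1.68, FDR = 0.0354), and the call with shGas41-2 was gained without shNT replicate 1 (FDR = 0.0488).

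In shGas41-1, 24.1% of all genes tested were lower than shNT without overlap between the groups, and in shGas41-2 32% were, so that separation by itself was common. *T* (ENSMUSG00000062327, chr17:8627288-8635361, plus strand), which maintains the streak and the posterior mesoderm, did not follow the other T-box genes. It held 23, 20 and 15 counts in shNT, 31, 45 and 27 with shGas41-1, and 21 and 42 with shGas41-2. The shGas41-1 libraries were all above shNT in CPM (0.413 to 0.575 against 0.207 to 0.388 CPM), whereas the shGas41-2 libraries overlapped shNT. The log2 fold changes were 0.75 ± 0.34 (edgeR FDR = 0.151) and 0.50 ± 0.45 (edgeR FDR = 0.507), and neither was called.

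*Fgf8* (ENSMUSG00000025219, chr19:45811288-45817405, minus strand), the only ligand in the set, held 5, 13 and 2 counts in shNT. It held 14, 26 and 18 counts with shGas41-1 and 16 and 18 with shGas41-2. Its means were 2.66-fold and 2.11-fold higher than shNT, but the shNT libraries themselves ran from 0.0276 to 0.187 CPM and the FDR was 0.111 and 0.3 in edgeR's quasi-likelihood test. The 95% interval of the log2 fold change ran from 0.14 to 2.81 with shGas41-1, which leaves out 0 (unadjusted p = 0.0337 in the same edgeR fit), and from -0.38 to 2.67 with shGas41-2. In both comparisons *Fgf8* passed the filter on low counts only through the KD libraries, where it was higher, which limits what these tests can show. Its shNT replicate 3 lay below the floor of 3 counts. Both EB day 0 libraries, which carry the control vector, held 14 counts, so these controls (0.196 and 0.22 CPM) stood at about the level of shGas41-2 (0.196 and 0.225 CPM).

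The helix-loop-helix genes were at or near the limit of detection. *Mesp1* (ENSMUSG00000030544, chr7:86937127-86938674, minus strand), an early marker of cardiac and cranial mesoderm, held 9, 16 and 16 counts in shNT. It held 17, 19 and 17 with shGas41-1 and 14 and 28 with shGas41-2. The intervals of its log2 fold change, -0.45 to 1.13 and -0.64 to 1.52, included a 2-fold rise. *Msgn1* (ENSMUSG00000047002, chr12:11215188-11215754, minus strand), a single-exon gene of presomitic mesoderm, held 1 count in shNT replicate 1 and 6 in shGas41-2 replicate 1, and 0 in the other 6 libraries of the KD experiment. A change in *Msgn1* was not detectable at this depth.

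**Figure D2:**
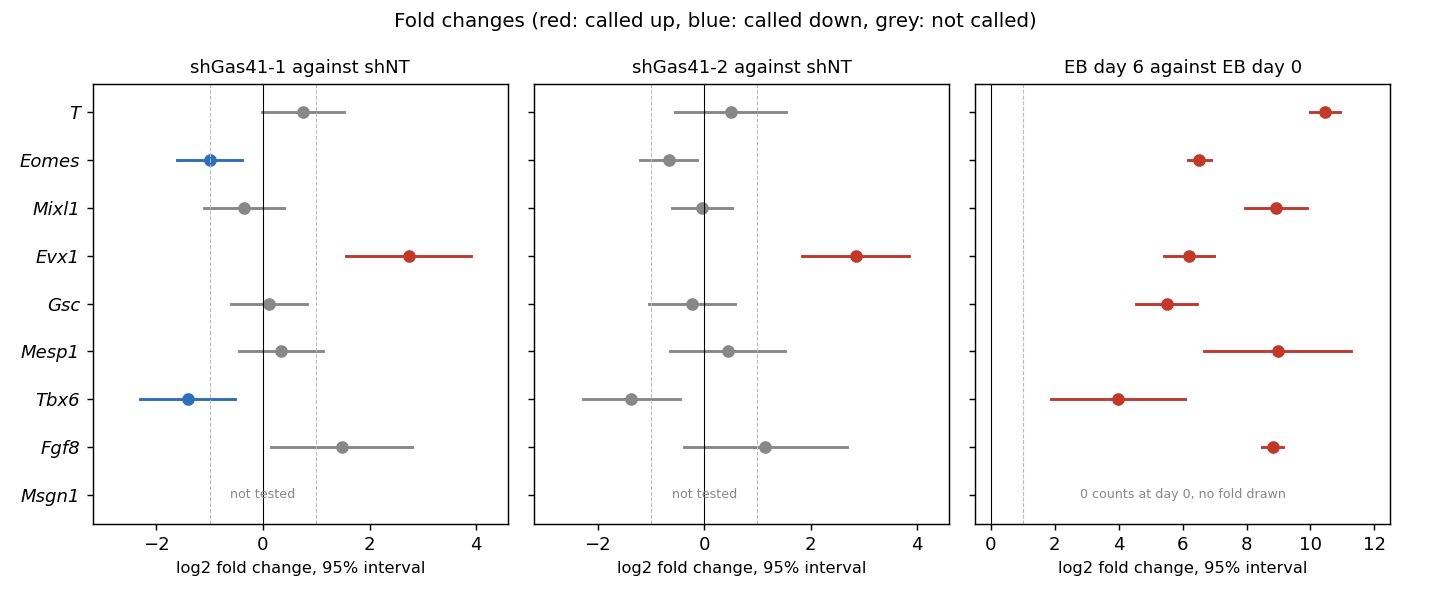
Log2 fold change of each gene in 3 comparisons, with its 95% interval from edgeR's quasi-likelihood fit; dashed lines mark a 2-fold change. In the KD comparisons the intervals of *Evx1* (2.73 and 2.85) lie to the right of 0 and those of *Eomes* and *Tbx6* to the left with both hairpins, that of *Fgf8* lies to the right with shGas41-1 without a call, and the others include 0, whereas at EB day 6 every interval drawn lies to the right of 1; *Msgn1* has no fold drawn.

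When the hairpins were compared with each other, no member was called. The log2 fold change of shGas41-1 against shGas41-2 was -0.11 for *Evx1* (95% interval -1.37 to 1.15), -0.04 for *Tbx6* (-1.11 to 1.03) and -0.33 for *Eomes* (-0.96 to 0.30). The count was 0 of 8 members in edgeR's quasi-likelihood test and in DESeq2, and 0 members had an unadjusted p under 0.05. Of all 19146 genes tested, 0 were called by edgeR, 1348 had an unadjusted p under 0.05 and 71 were called by DESeq2. The intervals of *Evx1* and *Tbx6* extend beyond a 2-fold difference in both directions.

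The 2 sets of control libraries were also compared, because EB day 0 serves as the reference for EB day 6 and shNT for the KDs. Of the 8 members tested, 0 were called by edgeR or DESeq2 and 1, *Eomes*, had an unadjusted p under 0.05. *Eomes* was at 9.05 ± 2.45 CPM (SD, n = 3) in shNT and 6.35 ± 0.66 CPM (n = 2) at EB day 0, a log2 fold change of -0.52 ± 0.22 (edgeR FDR = 0.196). Over all genes tested, 0.458% were higher and 0.121% lower at EB day 0 than in shNT.

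All 9 genes rose by EB day 6, as did 16.6% of all genes tested, among which the median log2 fold change was -0.00285. *Mesp1* and *Msgn1* passed the filter on low counts only through the day 6 libraries, where they were high, which limits what their calls can show. In all 9 both day 6 libraries lay above both day 0 libraries, which held for 37.4% of all genes tested. For each of the 8 members with counts at day 0, the fold of the means was larger than that of the same member, in either direction, with either hairpin. For *Tbx6* the size of the rise depended on the EB day 6 library used, as given below. *T* went from 0.322 and 0.361 CPM at EB day 0 to 406 and 496 CPM at EB day 6. This was 1320.1-fold (log2 fold change 10.45 ± 0.19 SE, edgeR FDR = 1.43e-06), the largest rise of the 8 members that had counts at day 0. *Eomes* went from 5.88 and 6.81 CPM to 503 and 593 CPM, 86.4-fold (6.52 ± 0.15, edgeR FDR = 2.42e-06). *Tbx6* rose least, from 0.266 and 0.408 CPM to 1.44 and 8.49 CPM, 14.7-fold (3.97 ± 0.87, edgeR FDR = 0.00802), and the fold was 4.26 with EB day 6 replicate 2 alone and 25.2 with replicate 3 alone. Among the T-box genes the order of the rise was thus *T*, *Eomes*, *Tbx6*.

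The homeobox genes also rose in both EB day 6 libraries. *Mixl1* went from 1.04 and 0.832 CPM to 302 and 559 CPM, 461-fold. *Evx1* went from 1.32 and 1.65 CPM to 74.9 and 129.8 CPM, 69.0-fold, and *5730457N03Rik* from 0.294 and 0.282 CPM to 21.9 and 49.4 CPM. *Gsc* went from 0.967 and 0.471 CPM to 23.1 and 38.8 CPM, 43.1-fold. In each of these genes the day 0 and day 6 libraries lay far apart. *Fgf8* went from 0.196 and 0.22 CPM to 87.0 and 91.7 CPM, 429.8-fold (log2 fold change 8.82 ± 0.14, edgeR FDR = 1.22e-06). It was the member with the closest replicates at day 6.

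The helix-loop-helix genes rose with a wide error. *Mesp1* went from 0.168 and 0.0471 CPM to 21.8 and 84.4 CPM, 493-fold (log2 fold change 8.97 ± 0.96, edgeR FDR = 0.000389), and the fold was 202 with EB day 6 replicate 2 alone and 785 with replicate 3 alone. *Msgn1* had 0 counts in both EB day 0 libraries and 18 and 358 counts at EB day 6, or 0.266 and 5.21 CPM, and was at least 61.4-fold higher when the day 0 libraries were set to the floor of 3 counts each (edgeR FDR = 0.0187). This bound was 5.98-fold with EB day 6 replicate 2 alone and 116.9-fold with replicate 3 alone. Without EB day 0 replicate 3 the calls of *Mesp1* (FDR = 0.0575), *Tbx6* (FDR = 0.147) and *Msgn1* (FDR = 0.181) were lost, and without EB day 0 replicate 2 those of *Tbx6* (FDR = 0.0854) and *Msgn1* (FDR = 0.0942).

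The spread between both EB day 6 libraries followed the genes rather than being common to them all. The level in replicate 3 was 1.05 times that in replicate 2 for *Fgf8*, 1.18 times for *Eomes* and 1.22 times for *T*. It was 1.68 times for *Gsc*, 1.73 times for *Evx1* and 1.85 times for *Mixl1*. It was 3.88 times for *Mesp1*, 5.92 times for *Tbx6* and 19.5 times for *Msgn1*. The 3 genes of nascent and presomitic mesoderm thus stood apart from the other 6, and *Msgn1* held 18 counts in the lower library. Of the 13649 genes with at least 100 counts in either library, 1.41% were at least 2 times higher in replicate 3 and 0.601% at least 2 times lower.

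Many other mesoderm genes were also higher in replicate 3. In a list of 42 other streak, mesendoderm and mesoderm genes, 32 had at least 100 counts in either library, and 22 of these (68.8%) were at least 2 times higher in replicate 3 while 0 were 2 times lower. Of the 32, 28 were higher in replicate 3 by any margin and 4 lower (*Tcf15*, *Meis1*, *Mef2c* and *Zic2*), with *Tcf15* at 8.39 and 4.89 CPM. *Kdr*, a receptor of blood and vessel progenitors, was at 7.12 and 55.5 CPM, *Mesp2*, a paralogue of *Mesp1*, at 5.31 and 22.9 CPM, and *Dll1*, a Notch ligand of presomitic mesoderm, at 7.58 and 33.2 CPM. These 3 were picked after their values had been seen. Of the 28 inducers and antagonists of the streak, 7 were at least 2 times higher in replicate 3 and 0 were 2 times lower. Markers of endoderm (4 genes found in all tables, 0 of them at 0 counts) summed to 34.7 CPM in replicate 2 and 108.7 CPM in replicate 3, and most of the difference was in *Cxcr4* (11.8 and 74.2 CPM). Those of blood and endothelium (4 genes) summed to 11.5 and 59.1 CPM, but the rise was in *Kdr*, and the other 3 summed to 4.36 and 3.64 CPM. Those of undifferentiated mESCs summed to 1525 and 1194 CPM. Those of primed epiblast summed to 1335 and 1028 CPM, and those of neural ectoderm to 174 and 171 CPM. Those of trophoblast summed to 149 and 233 CPM, and those of fibroblast to 9.71 and 10.3 CPM. The part of these cell types in the spread of *Mesp1*, *Tbx6* and *Msgn1* was not tested.

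**Figure D3:**
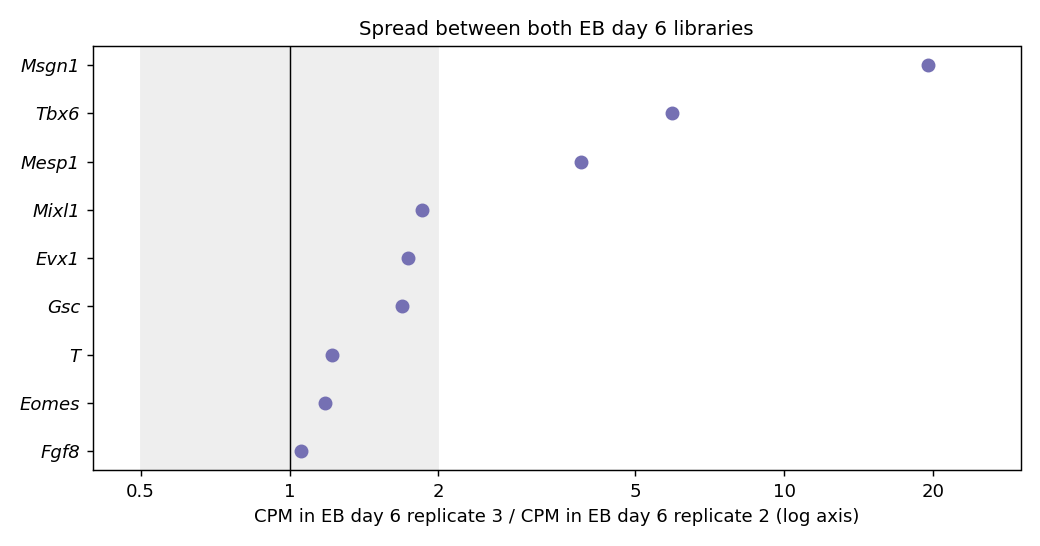
Ratio of the level in EB day 6 replicate 3 to that in replicate 2 for each gene (log axis), with the range from 0.5 to 2 shaded. *Fgf8*, *Eomes* and *T* lie close to 1, and *Mesp1*, *Tbx6* and *Msgn1* at 3.88, 5.92 and 19.5.

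To compare genes with each other, levels were divided by the length of the merged exons in kilobases (CPM per kb). In shNT, *Eomes* was highest at 2.18 ± 0.591 CPM per kb (SD, n = 3), followed by *Gsc* at 0.713 ± 0.252 and *Mixl1* at 0.546 ± 0.0251, whose ranges overlapped. *Evx1* came next at 0.353 ± 0.134, and *Tbx6*, *Mesp1*, *T*, *Fgf8* and *Msgn1* followed at between 0.225 and 0.00993 CPM per kb. From *Mesp1* downwards, each gene overlapped the next. Among 23378 genes with a length, *Eomes* stood above 54.8% in shNT and the other 8 members above 43.3% or fewer. In both KDs *Evx1* had the highest mean of the 9, at 2.25 ± 1.68 CPM per kb (n = 3) with shGas41-1 and 2.40 ± 1.5 (n = 2) with shGas41-2, although its range overlapped that of *Eomes* in both. It then stood above 56% and 57% of the genes. At EB day 6 the order was another one. *T* (195 ± 27.4 CPM per kb, n = 2), *Mixl1* (188 ± 79.1) and *Eomes* (132 ± 15.3) formed an upper group in which each overlapped the next, *Fgf8*, *Mesp1*, *Evx1* and *Gsc* followed in an overlapping series from 66.2 to 24.5 CPM per kb, and *Msgn1* (4.83 ± 6.16) and *Tbx6* (2.75 ± 2.77) stood below with ranges that overlapped only each other. *T* and *Mixl1* then stood above 98.4% and 98.3% of the genes and *Tbx6* above 57.4%.

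**Figure D4:**
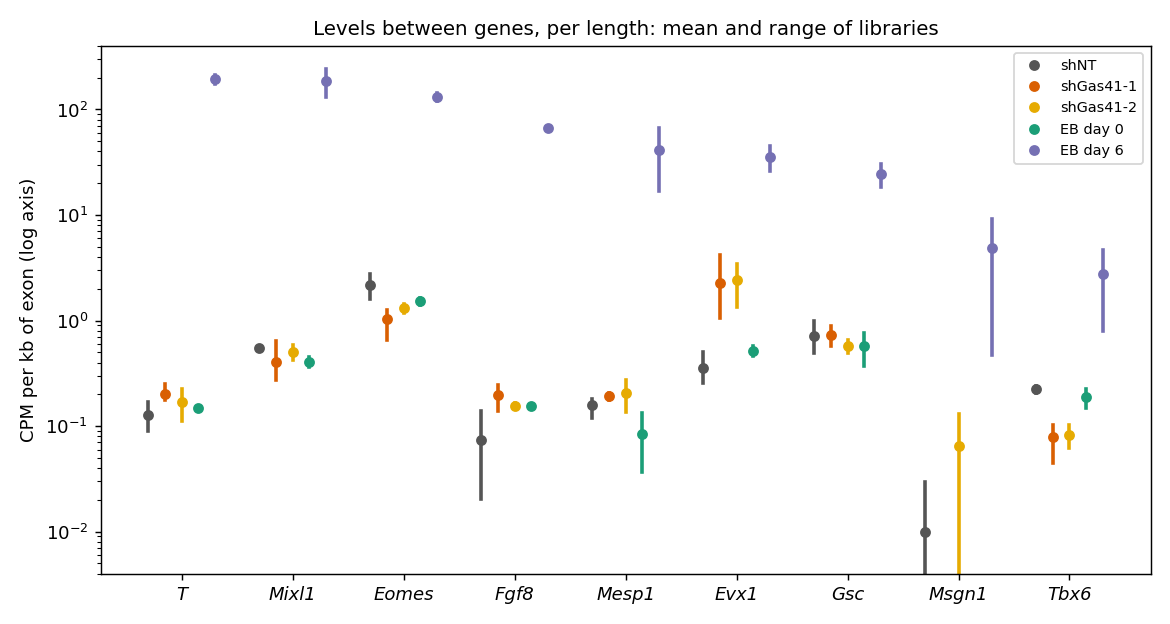
Mean (point) and range over libraries (bar) of each gene in CPM per kb of exon (log axis) in the 5 groups, ordered by the mean at EB day 6. *Eomes* leads in shNT at 2.18, *Evx1* in both KDs at 2.25 and 2.40, and *T*, *Mixl1* and *Eomes* at EB day 6; groups with 0 counts in all libraries are not drawn.

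Set against the level that the same gene reached at EB day 6, the KD cells remained low. *Evx1* was at 0.994% of its EB day 6 level in shNT, at 6.34% with shGas41-1 and at 6.74% with shGas41-2. *T* was at 0.0653%, 0.104% and 0.0867%. *Eomes* was at 1.65%, 0.786% and 0.987%, and *Tbx6* at 8.18%, 2.90% and 2.98%. The shares of *Tbx6* depend on which EB day 6 library is used: they were 28.3%, 10.0% and 10.3% of replicate 2 and 4.78%, 1.69% and 1.74% of replicate 3. The share was larger with both hairpins than in shNT for *Evx1*, and smaller for *Eomes* and *Tbx6*. Among members that were not called, it was also larger for *T*, *Fgf8* (0.112% in shNT, 0.297% and 0.236% in the KDs) and *Mesp1* (0.379%, 0.459% and 0.491%). The shares of *Mesp1* also depend on the library: they were 0.925%, 1.12% and 1.20% of replicate 2 and 0.238%, 0.289% and 0.309% of replicate 3. For *Mixl1* the share was smaller (0.291%, 0.215% and 0.267%). *Gsc* was at 2.92% in shNT, 2.97% with shGas41-1 and 2.34% with shGas41-2.

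Lists of other genes of the process were described by their counts in the same fits. Over all genes tested, 7.9% rose and 2.4% fell with shGas41-1, and 3.96% rose and 0.869% fell with shGas41-2. At EB day 6, 16.6% rose, and 52.9% of all genes called were rises. Of 28 inducers and antagonists of the streak, 26 were tested in each KD comparison. With shGas41-1, 5 rose (*Lef1*, *Sp5*, *Wnt8a*, *Dkk1* and *Fgf5*) and 0 fell, while 4 were lower at an unadjusted p under 0.05. *Lef1*, a Wnt effector, went from 1.22 ± 0.0694 CPM in shNT to 6.01 ± 1.91 CPM (log2 fold change 2.37 ± 0.24 SE, edgeR FDR = 0.00223), and *Sp5*, a Wnt target gene, from 1.5 ± 0.262 to 4.02 ± 2.77 CPM (1.49 ± 0.43, edgeR FDR = 0.0437). With shGas41-2, *Lef1* (3.59 ± 0.682 CPM, 1.64 ± 0.20, edgeR FDR = 0.00411) and *Dkk1*, a secreted Wnt antagonist, rose and 0 fell, while 1 was lower at an unadjusted p under 0.05. The median log2 fold change of the list was -0.01 with shGas41-1 and 0.07 with shGas41-2, against 0.02 and -0.01 over all genes tested. At EB day 6, 20 of the 28 rose and 3 fell, with a median of 3.13, against -0.00285 over all genes tested. *Fgf5*, a growth factor of the primed epiblast, went from 0.0751 to 200.1 CPM and *Rspo3*, which amplifies Wnt signals, from 0.0829 to 27.2 CPM. Both passed the filter on low counts only through the day 6 libraries, where they were high. Genes of this kind are in the count of rises and the median of the list, which limits what these can show. *Fgf4* fell from 202.9 to 13.3 CPM and *Bmp4* from 38.9 to 3.06 CPM.

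Among 42 other streak, mesendoderm and mesoderm genes, 34 were tested with shGas41-1, of which 12 rose and 2 fell, with a median log2 fold change of 0.65. Over all genes tested, 7.9% rose and 2.4% fell, and the median was 0.02. *Cdx2*, a factor of posterior mesoderm and trophoblast, went from 0.223 ± 0.144 to 1.18 ± 0.123 CPM (2.50 ± 0.45, edgeR FDR = 0.00776), and *Dll1* from 0.457 ± 0.0836 to 2.24 ± 0.643 CPM (2.35 ± 0.28, edgeR FDR = 0.00263). In this comparison *Cdx2* passed the filter on low counts only through the KD libraries, where it was higher, which limits what its call can show. *Cdx1* fell from 9.01 ± 2.26 to 2.77 ± 1.35 CPM (-1.64 ± 0.35, edgeR FDR = 0.0148) and *Nkx1-2*, a gene of the streak and the adjoining neural plate, from 1.12 ± 0.0976 to 0.401 ± 0.122 CPM (-1.40 ± 0.27, edgeR FDR = 0.011). *Cdx1* also differed between the control sets, at 4.25 CPM at EB day 0 (edgeR FDR = 0.0444). With shGas41-2, 31 were tested, 5 rose (*Meis1*, *Dll1*, *Meox2*, *Pcdh8* and *Snai1*) and 0 fell, while 2 were lower at an unadjusted p under 0.05, with a median of 0.48. Over all genes tested with this hairpin, 3.96% rose and 0.869% fell, and the median was -0.01. *Meis1* was at 2.15 ± 0.131 CPM against 0.816 ± 0.214 CPM in shNT (1.48 ± 0.26, edgeR FDR = 0.0151). At EB day 6, 28 of the 38 tested rose and 3 fell, with a median of 3.90, while 16.6% of all genes tested rose and their median was -0.00285. *Aplnr*, a receptor of early mesoderm, was at 0.00785 CPM at EB day 0 and 146 ± 122 CPM at EB day 6 (59.7 and 232 CPM in replicates 2 and 3). *Lhx1*, a factor of the anterior streak, was at 0.0350 and 315 ± 255 CPM (135 and 495 CPM in replicates 2 and 3). The day 0 means of both lay below the floor of 3 counts, and both passed the filter on low counts only through the day 6 libraries. Genes of this kind are in the count of rises and the median of the list, which limits what these can show. *Tbx3* fell from 190.3 ± 26.7 to 21.0 ± 14.4 CPM and *Tcf15* from 42.2 ± 5.79 to 6.64 ± 2.48 CPM.

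In the T-box family, which includes 3 of the 9 members, 10 of 17 genes were tested with shGas41-1, and *Tbx15* rose from 0.770 ± 0.0503 to 1.92 ± 0.436 CPM (log2 fold change 1.39 ± 0.23, edgeR FDR = 0.00581) beside the fall of *Eomes* and *Tbx6*. With shGas41-2, 0 of 11 were called, while 3 were higher and 3 lower at an unadjusted p under 0.05. At EB day 6, 7 of 13 rose, 3 of which are the members, and 1 fell (*Tbx3*). Over all genes tested, 7.9% were called up and 2.4% down with shGas41-1, 3.96% and 0.869% with shGas41-2, and 16.6% up at EB day 6. Some neural and trophoblast markers were called up in the KD cells. In shGas41-1, 2 of 3 neural ectoderm markers tested were called up (*Neurog1* and *Pax6*), and the 5 markers found in all tables summed to between 17.7 and 23.7 CPM against between 10.9 and 11.5 CPM in shNT. With shGas41-2, *Neurog1* was called up and the sum was between 12.4 and 15.0 CPM. Of the trophoblast markers, *Cdx2*, with the limit given above, and *Gata3* were called up with shGas41-1 and *Gata3* with shGas41-2. The 6 markers summed to less than in shNT (34.5 to 46.2 and 39.8 to 47.4 CPM against 52.6 to 68.0 CPM). Endoderm markers summed to between 3.35 and 4.38 CPM with shGas41-1 and between 3.51 and 3.52 CPM with shGas41-2, against between 2.64 and 3.04 CPM in shNT, with 0 of the 4 tested called by edgeR in either KD, while 1 and 0 were higher at an unadjusted p under 0.05. Of the blood and endothelium markers, 0 of 4 tested were called by edgeR in either KD, while 1 with shGas41-1 and 2 with shGas41-2 were higher at an unadjusted p under 0.05. The 3 fibroblast markers found in all tables summed to between 4.16 and 5.94 CPM with shGas41-1, where *Thy1* was called down, and between 9.21 and 9.70 CPM with shGas41-2, against between 7.92 and 13.9 CPM in shNT. The part of these cell types in the levels of *Evx1*, *Eomes* and *Tbx6* was not tested.

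**Figure D5:**
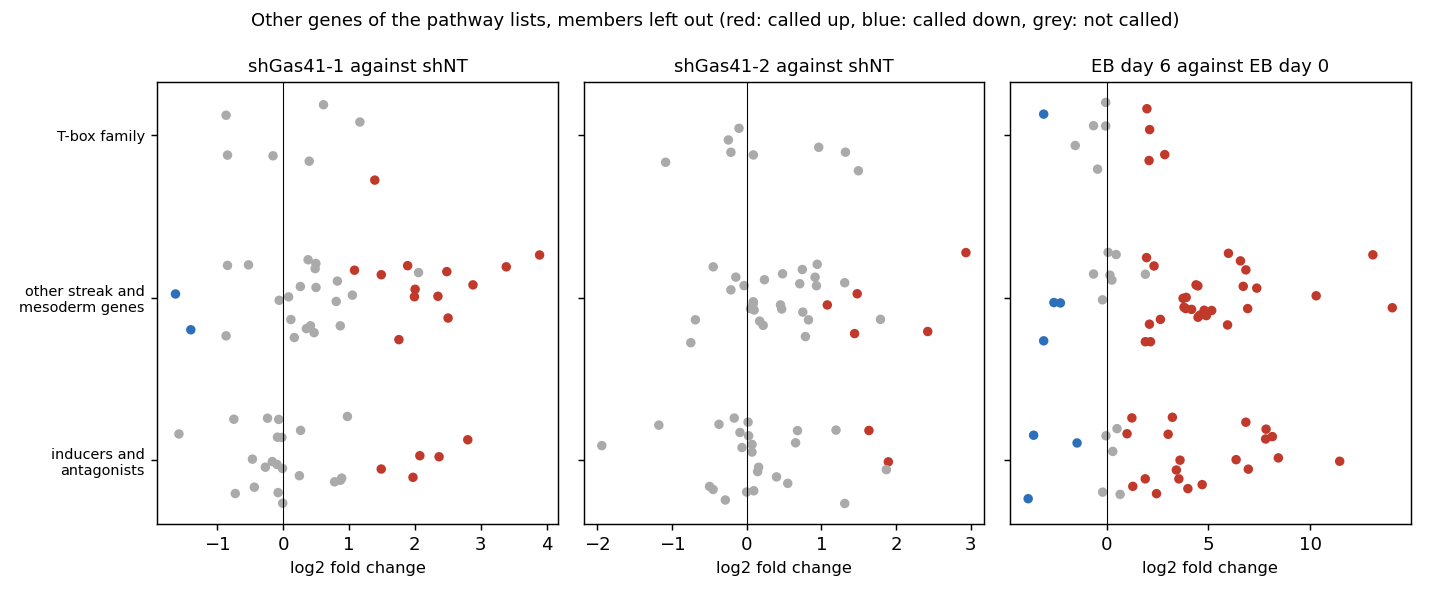
Log2 fold change of the other genes of 3 lists (members left out) in the 3 comparisons, a point for each gene tested and coloured by its call; the height within a list has no meaning. With shGas41-1, 5 genes of the first list, 12 of the second and 1 of the third are called on the right, and *Cdx1* (-1.64) and *Nkx1-2* (-1.40) on the left; shGas41-2 has fewer, and at EB day 6 most genes of the first 2 lists lie to the right, with medians of 3.13 and 3.90 when all list genes are counted.

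The genes whose levels followed those of *T*, *Evx1* and *Tbx6* most closely over the 12 libraries were ranked by Pearson's r of log2(CPM + 1) among 15547 genes with a mean of at least 1 CPM in some group. The libraries share their groups, and the EB day 6 libraries set most of the variation, so these values are a description. For *T* the first 5 were *Fgf8*, *Trim67*, *Camk1g*, *Wnt3* and *Gm7677*, all with r above 0.99, and the first was itself a member. For *Evx1* they were *Sdk1* (r = 0.986), the overlapping *5730457N03Rik* (r = 0.984), *Samd4*, *Stk32b* and *Bin1*, and for *Tbx6* they were *Usp18* (r = 0.982), *Vwa5b1*, *Prdm6*, *Fam163a* and *Sprr2a1*, the last from a family of near-identical genes whose counts are uncertain. With a pseudocount of 0.1 CPM, 1, 3 and 1 of the 5 genes were kept for *T*, *Evx1* and *Tbx6*, and with Spearman's correlation 0 were.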

How the data were processed

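RNA was sequenced from 12 libraries of J1 mESCs. The authors prepared them with the TruSeq RNA v2 kit, mapped the reads to mm9 with TopHat2 (2.0.10 in the submitters' processing notes) and used htseq-count to count reads on genes. The deposited counts are raw whole numbers, and the setting for strand is not given in the sources used here. The deposited log2 fold changes and the deposited p-values and FDR are the authors' own edgeR comparisons and were not used. Labels that read shCon were taken as shNT, and the columns named ESC in the EB table as EB day 0. ChIP-seq was not analysed here.

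Counts were filtered (filterByExpr, minimum count 10, minimum total 15), scaled by TMM and tested with edgeR 4.0.16 (glmQLFit and glmQLFTest) in R 4.3.3, over all genes and with only the groups compared. CPM used library totals. Depth ran from 59224537 to 81524773 counts. The test was checked on simulated counts with known changes.

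The members and lists were chosen with earlier results of these data known. Outside the 9 members, *Yeats4* and the overlapping transcript, up to 2 rises and 2 falls were named per list and comparison, by size, among called genes with a mean of at least 1 CPM in either group. Where a list other than the markers had 5 or fewer calls in a comparison, counting both directions together, all were named. *Kdr*, *Mesp2*, *Dll1* at EB day 6 and the markers were named after their values had been seen. Gene positions and exon lengths came from the GENCODE annotation of mm9. Alternatives were DESeq2 1.42.0, edgeR's exact test, glmTreat, other thresholds, library totals, no filter, halved counts, all 12 libraries in 1 fit, the replicate block and each library left out. Fits without 1 library of a group of 2 assume that the lone library varies like the others.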

Additional observations from a re-analysis of the deposited data

How the results depend on the processing

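*Evx1* was called up with both hairpins under the alternatives run, except with glmTreat (0 members up with either hairpin) and, for shGas41-2, without replicate 2 of that hairpin. With shGas41-1, 2 members were called up with edgeR's exact test and with all 12 libraries in 1 fit, the second being *Fgf8* (FDR = 0.041 and 0.0251). The 2 members called down with shGas41-1 became 0 at an FDR of 0.01, with glmTreat and with the replicate block, and 1 with halved counts and with all 12 libraries. With shGas41-2, 1 member (*Tbx6*) was called down at an FDR of 0.10, with the exact test (FDR = 0.0139) and with the replicate block (FDR = 0.0293). Leaving out each library gave between 0 and 1 members down with shGas41-1, between 0 and 1 up and between 0 and 1 down with shGas41-2, and between 6 and 9 up at EB day 6. The cause of these differences was not tested.

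The count of genes called with shGas41-1 (1882) was 925 at an FDR of 0.01, 2984 at a fold of 1.5 and 312 with glmTreat, and between 1222 and 2049 without 1 library. With shGas41-2 (888) it was 328, 1478 and 8 under the same 3 settings, 1335 with the exact test and 1334 with the replicate block, and between 287 and 1467 without 1 library. At EB day 6 (5726) it ran from 3710 to 5958 without 1 library. Between the hairpins it was 0 in edgeR and 71 in DESeq2. Between EB day 0 and shNT (105) it was 174 without the filter, 299 with the replicate block and between 1 and 322 without 1 library.

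No source says that a replicate number marks a shared culture or batch, and no block was used. The deviations of same-numbered libraries correlated at 0.00, 0.14 and -0.39 with shGas41-1, at 0.34 and 0.24 with shGas41-2, and at 0.05 in the EB comparison. With 2 pairs, whether the numbers pair the shGas41-2 libraries is undecided. With the replicate block *Eomes* (FDR = 0.111) and *Tbx6* (FDR = 0.0822) lost their calls with shGas41-1, and no EB call changed. The log2 fold change of *Evx1* between the hairpins changed sign under the replicate block (0.13).

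Signs that reversed without 1 library belonged to values that were not called: *Evx1* (-0.88 to 0.76), *Mesp1* (-0.54 to 0.52), *T* (-0.19 to 0.88) and *Tbx6* (-0.33 to 0.32) between the hairpins, *Gsc* with shGas41-1 (-0.11 to 0.41) and shGas41-2 (-0.46 to 0.0773), *Mesp1* (-0.17 to 0.88), *Mixl1* (-0.31 to 0.19) and *T* (-0.12 to 0.93) with shGas41-2, and *Gsc* (-0.94 to 0.0704) and *T* (-0.00811 to 0.45) between EB day 0 and shNT. The summed level of the members at EB day 0 moved from 3.59 to 3.44 CPM per kb with TMM factors, and the order of the members was the same in all 5 groups. Counts of *Msgn1*, *Fgf8*, *Mesp1*, *Tbx6* and *T* were low in undifferentiated cells, where no library held more than 45 of any of them. With shGas41-1, halving the counts kept the call of *Tbx6* (FDR = 0.0349) and left *T* uncalled (FDR = 0.123).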
